A study of Mus musculus with 16 samples.

Results

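The enzymes, carriers and regulators of fatty acid oxidation in mitochondria and peroxisomes were examined in mouse liver. They were chosen by gene symbol from a list of 42 genes that spans the carnitine shuttle, fatty acid activation, mitochondrial and peroxisomal β-oxidation, electron transfer, ketone bodies and the regulators of the fasting response. Of these, 39 were measured, each by 1 probe set, among 19505 genes tested. Acsl1, Acsl3 and Etfb were not analysed here. The study profiled liver biopsies on Affymetrix arrays from 8 control samples and 8 samples of a nonalcoholic steatohepatitis (NASH) model, all on the C57BL/6 strain background and with no drug or engineered allele named in the labels. The labels do not say how the model was induced, nor the animals' age or sex. Its samples carry the numbers 1 to 7 with number 1 present as 1a and 1b, and nothing in the labels says that each sample came from a separate animal, and the p-values speak only of the spread among the samples. Values are log2 signal, and a difference of 1 on that scale is a 2-fold change. Genes were called where limma's p, adjusted over all 19505 genes by Benjamini-Hochberg, was under 0.05.

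Long-chain fatty acids are first joined to coenzyme A, then passed into the mitochondrion as carnitine esters, and there shortened by repeated rounds of dehydrogenation, hydration, a second dehydrogenation and thiolysis. Peroxisomes run a parallel route for very long, branched and bile acid side chains, and liver turns surplus acetyl-CoA into ketone bodies for other tissues. In liver many of these genes are transcribed under the nuclear receptor PPARα together with the coactivator encoded by Ppargc1a, and their level follows feeding and fasting.

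Most of the 39 genes, like most of all genes tested, differed little between the groups, and the called ones were spread over the roles. Of the 39 measured genes, 10 rose in the NASH model (25.6%), where 13.2% of all genes tested were called higher. Another 2 fell (5.13%), where 13.4% of all genes were called lower, and 27 passed in neither direction. The same 13.2% and 13.4% stand beside each count for a subgroup or list below, except where another setting is named. The genes that rose were Pdk4, Acsl4, Vnn1, Ehhadh, Ppargc1a, Bdh1, Acadl, Cpt1a, Hadhb and Acadm, and those that fell were Acox2 and Scp2. The median log2 difference over the 39 genes was 0.09, beside -0.04 over all genes. For 32 of the 39 the difference was under 0.5 on the log2 scale in size, beside 16308 of all 19505 genes. For 2, Pdk4 and Acsl4, it was over 1, beside 1022 of all genes. Both shares were close to those over all genes. In 4 of the called genes (Acsl4, Acadl, Bdh1 and Scp2) no sample of one group reached the values of the other, which held for 9.53% of all genes.

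**Figure D1:**
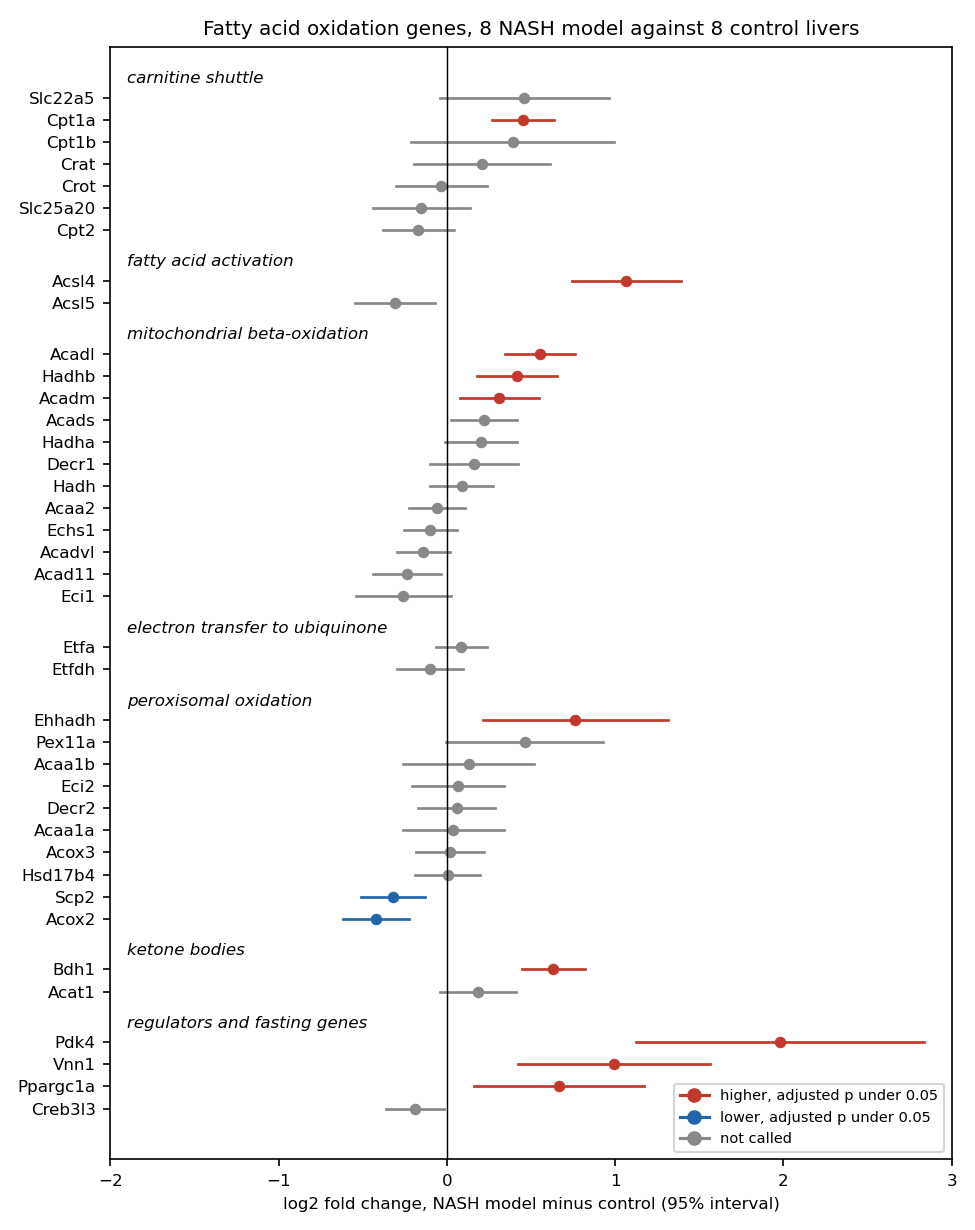
Difference between the NASH model and the control samples (log2, horizontal axis) for each of the 39 measured genes, grouped by role, with the 95% interval of the limma fit over 8 samples in each group. Red points are the 10 genes called higher and blue points the 2 called lower. Most points lie within 0.5 of the line at 0, and Pdk4 stands farthest to the right.

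How the arrays were put on one scale bears on the direction counts. With each array centred on its own median the members split into 7 higher and 7 lower, against 12.1% and 18.7% of all genes, and with centring on the hybridization spike-in controls into 10 and 2, against 17.0% and 6.04%. Higher calls made up 49.6% of all calls as reported, 39.2% with median centring and 73.7% with spike-in centring, and the median of all genes was -0.12 and 0.06 log2 in the latter pair. Cpt1a, Acsl4, Acadl, Acox2, Bdh1, Pdk4 and Vnn1 were called in each of the 30 alternative settings tried.

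Bulk liver RNA mixes cell types, and fewer cells of a type cannot be told apart from less RNA per cell. Of 14 measured hepatocyte markers 6 fell, and their summed linear signal ranged from 42342 to 43401 in controls and from 40694 to 43453 in the NASH model. The 6 were F7 (log2 difference -0.84), Foxa2 (-0.76), Cebpa (-0.67), Hnf4a (-0.66), Fgb (-0.35) and Asgr1 (-0.31). The sum is carried mostly by Alb, Apoa1, Ttr, Trf, Ahsg and Serpina1c, which were not called and had group means of 12.05 to 12.64 log2. These lie near the highest deposited value of 12.74, so the sum may hardly show a fall. Of 13 macrophage markers 9 rose and 2 fell, with a summed signal of 735 to 1626 in controls and 4114 to 5187 in the NASH model. Of 9 stellate cell and myofibroblast markers 8 rose, with sums of 363 to 517 and 1198 to 2149. Cholangiocyte markers rose in 4 of 7 genes (sums 116 to 209 and 112 to 551), endothelial markers fell in 5 and rose in 1 of 7 (761 to 1019 and 553 to 769), and lymphocyte markers rose in 3 and fell in 1 of 7 (72.5 to 106 and 75.4 to 94.9). Of 6 adipocyte and muscle markers limma called 0, with 2 at an unadjusted p under 0.05 (sums 39.5 to 49.1 and 34.9 to 46.7), and Adipoq and Lep lay below the background level of 2.89 log2 in every sample. No value of the 39 genes lay below that level. The part of cell makeup in the differences that follow was not tested.

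In the carnitine shuttle, 1 of 7 genes rose, close to the 13.2% of all genes called higher. Cpt1a, the liver carnitine palmitoyltransferase of the outer mitochondrial membrane and the controlled step of entry, had log2 signals from 9.71 to 10.14 in controls (median 9.85) and from 10.09 to 10.56 in the NASH model (median 10.32). The groups met only at their edges, where control 10 lay above NASH model 6. Cpt1a rose by 0.45 (SE 0.09), or 1.37-fold, with a limma adjusted p of 0.000651 over 8 samples in each group. The partner enzyme of the inner membrane, Cpt2, had a difference of -0.17 (SE 0.10, adjusted p = 0.24) and the carrier between them, Slc25a20, one of -0.15 (SE 0.14, adjusted p = 0.47). Cpt1b, the muscle form, stood at 4.33 ± 0.81 (SD, n = 8) in controls and 4.72 ± 0.45 in the NASH model and was not called. The same held for the plasma membrane carnitine transporter Slc22a5 (difference 0.46, SE 0.24), the short-chain carnitine acetyltransferase Crat (0.21, SE 0.19) and the peroxisomal octanoyltransferase Crot (-0.03, SE 0.13). Without NASH model 7, which had the lowest Slc22a5 value of its group, the difference of Slc22a5 was 0.62 with an adjusted p of 0.041. This was the only setting of the 30 tried that called it.

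Of the acyl-CoA synthetases measured, Acsl4 rose and Acsl5 was not called. Acsl4, which prefers arachidonic acid and other polyunsaturated fatty acids, ranged from 7.08 to 8.07 in controls (median 7.42) and from 8.34 to 9.24 in the NASH model (median 8.47), so that the groups did not overlap. Its log2 signal rose by 1.07 (SE 0.15), or 2.09-fold, with a limma adjusted p of 2.8e-05. The highest NASH value, 9.24, was that of NASH model 2, and without this sample the difference was 0.97. Acsl5 had a difference of -0.31 (SE 0.11, adjusted p = 0.053), and leaving out control 4, control 6, control 9 or NASH model 2 brought its adjusted p to between 0.029 and 0.047.

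In the mitochondrial cycle 3 of 12 genes rose, beside 13.2% of all genes. Limma called 0 lower (1 at an unadjusted p under 0.05), beside 13.4% of all genes. With median centring 1 rose and 3 fell. The 3 called genes were Acadl, Acadm and Hadhb, of the steps for long and medium chains. Acadvl, Acad11 and Hadha, which also act on long or very long chains, were not called. Acadl, the long-chain acyl-CoA dehydrogenase, ranged from 8.36 to 9.02 in controls (median 8.55) and from 9.05 to 9.37 in the NASH model (median 9.12). Every NASH sample lay above every control, and Acadl rose by 0.55 (SE 0.10, 1.47-fold, limma adjusted p = 0.000263). Acadm, the medium-chain dehydrogenase, rose by 0.31 (SE 0.11, adjusted p = 0.047) from 7.95 ± 0.27 (SD, n = 8) to 8.27 ± 0.14. This call was lost on leaving out any of 13 of the 16 samples (each control but 6 and 10, and each NASH sample but 6), with differences of 0.25 to 0.33 and adjusted p of 0.051 to 0.093. The Acadm call was also lost with the deposited values and with median centring, and in 18 of the 30 alternative settings in all. The very-long-chain dehydrogenase Acadvl had a difference of -0.14 (SE 0.08), the short-chain dehydrogenase Acads one of 0.22 (SE 0.09), and Acad11, which acts on long and very long chains, one of -0.24 (SE 0.10), and none of these was called. Without control 3 or control 4 the difference of Acad11 was -0.28 in both cases, with adjusted p of 0.041 to 0.044.

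Hadha and Hadhb encode the α and β subunits of the mitochondrial trifunctional protein, which carries out the later steps on long chains. Hadhb rose by 0.42 (SE 0.11, limma adjusted p = 0.0093), from 8.94 ± 0.26 (SD, n = 8) to 9.35 ± 0.17, while Hadha stood at 9.58 ± 0.23 and 9.78 ± 0.12 and was not called (difference 0.20, SE 0.10, adjusted p = 0.16). With median centring Hadhb was no longer called (0.29, adjusted p = 0.064). The genes lie head to head on chromosome 5 of GRCm38.p6. The RefSeq start site of Hadha is at 30154980 on the minus strand and that of Hadhb at 30155253 on the plus strand, with 272 bases between. The 250 bases before the Hadhb start, chr5:30155003-30155252 on the plus strand, therefore lie wholly between the start sites and form the shared upstream region of both genes, which is why they are shown.
Hadhb upstream: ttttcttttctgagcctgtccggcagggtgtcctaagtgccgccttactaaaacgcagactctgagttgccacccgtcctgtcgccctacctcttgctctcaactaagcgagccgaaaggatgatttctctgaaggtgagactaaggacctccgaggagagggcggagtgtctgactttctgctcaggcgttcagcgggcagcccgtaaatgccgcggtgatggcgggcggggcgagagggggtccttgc

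The remaining enzymes of the cycle were not called. They were the short-chain hydroxyacyl-CoA dehydrogenase Hadh (0.09, SE 0.09), the enoyl-CoA hydratase Echs1 (-0.10, SE 0.08), the thiolase Acaa2 (-0.06, SE 0.08), the enoyl-CoA isomerase Eci1 (-0.26, SE 0.13) and the dienoyl-CoA reductase Decr1 (0.16, SE 0.13). Etfa and Etfdh, which pass electrons from the dehydrogenases to ubiquinone, had differences of 0.09 (SE 0.07) and -0.10 (SE 0.09) and were not called either.

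Among the 10 peroxisomal genes 1 rose and 2 fell, near the 13.2% and 13.4% of all genes called higher and lower. Ehhadh, the bifunctional enzyme of the classical peroxisomal route, ranged from 7.81 to 10.24 in controls (median 9.20) and from 9.66 to 10.79 in the NASH model (median 9.99). The control range was the wider one and took in every NASH value but that of NASH model 2. Ehhadh rose by 0.76 (SE 0.26, 1.70-fold, limma adjusted p = 0.037). Its call was lost on leaving out any of control 3, 4, 5, 7 or 9 or NASH model 2, 3, 4, 5 or 7 (differences 0.56 to 0.77, adjusted p 0.051 to 0.079). The Ehhadh call was lost in 12 of the 30 alternative settings in all.

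The genes that fell were Acox2 and Scp2. Acox2, the oxidase for bile acid intermediates, fell by 0.42 (SE 0.09, limma adjusted p = 0.0019), from 8.99 ± 0.18 (SD, n = 8) to 8.57 ± 0.14. Scp2, which encodes the thiolase for branched chains and the sterol carrier protein, fell by 0.32 (SE 0.09, adjusted p = 0.013), from 11.43 ± 0.08 to 11.11 ± 0.20, and its groups did not overlap. The other peroxisomal genes were not called. Hsd17b4, the multifunctional enzyme for branched chains, had a difference of 0.00 (SE 0.09), the oxidase Acox3 one of 0.02 (SE 0.10), the isomerase Eci2 one of 0.06 (SE 0.13) and the reductase Decr2 one of 0.06 (SE 0.11).

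Acaa1a and Acaa1b encode near-identical peroxisomal thiolases, and their probe sets may each read both, so their values are uncertain. Acaa1a had a difference of 0.04 (SE 0.14). Acaa1b ranged from 7.76 to 9.45 in controls (median 8.72) and from 8.16 to 9.14 in the NASH model (median 8.93), with a difference of 0.13 (SE 0.19, limma adjusted p = 0.68). The NASH range lay inside the control range. Pex11a, a peroxisome division factor and PPARα target, had a difference of 0.46 (SE 0.22, adjusted p = 0.14), and without NASH model 7 it was 0.61 with an adjusted p of 0.030. Leaving out NASH model 7, the sample with its lowest NASH value, was the only setting of the 30 tried that called Pex11a.

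**Figure D2:**
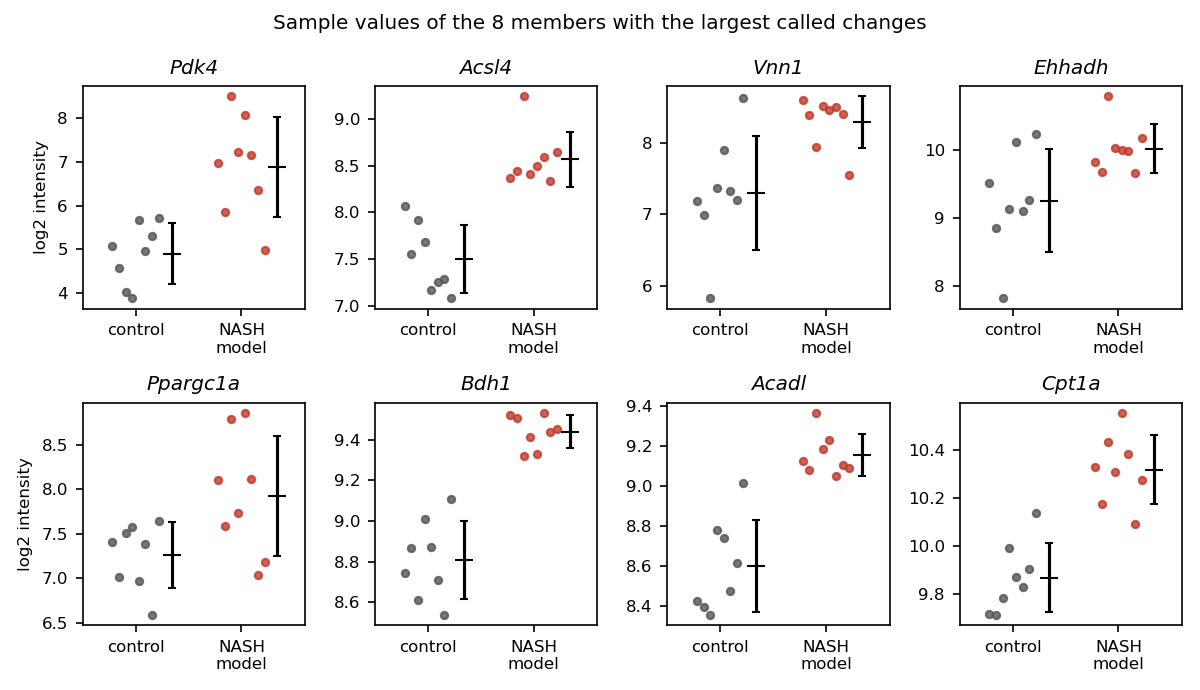
Log2 signal of each of the 16 samples (vertical axis, log2 intensity, not starting at 0) for the 8 called genes with the largest differences, with the mean and SD of each group of 8 beside the points. The groups are apart for Acsl4, Acadl and Bdh1, while the control values of Ehhadh and Vnn1 and the NASH values of Pdk4 are widely spread.

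Of the ketone body genes, Bdh1, the mitochondrial enzyme that interconverts acetoacetate and hydroxybutyrate, ranged from 8.54 to 9.11 in controls (median 8.81) and from 9.32 to 9.53 in the NASH model (median 9.44). All NASH samples lay above all controls, and within a narrower band. Bdh1 rose by 0.63 (SE 0.09, 1.55-fold) and had the smallest adjusted p of the 39 genes (2.1e-05, limma). Acat1, the mitochondrial acetoacetyl-CoA thiolase, had a difference of 0.19 (SE 0.11, adjusted p = 0.24).

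Among the regulators and fasting genes 3 of 4 rose, beside 13.2% of all genes. Pdk4, the pyruvate dehydrogenase kinase that turns off glucose oxidation in fasting, ranged from 3.88 to 5.73 in controls (median 5.02) and from 4.99 to 8.49 in the NASH model (median 7.05). NASH model 7 lay within the control range and NASH model 2 was the highest. Pdk4 rose by 1.98 (SE 0.41, 3.94-fold, limma adjusted p = 0.00105), and with NASH model 2 and 7 both left out by 2.03.

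Vnn1, a pantetheinase that yields the coenzyme A precursor pantothenate and a PPARα target, ranged from 5.82 to 8.64 in controls (median 7.26) and from 7.55 to 8.60 in the NASH model (median 8.44). Control 10 was above all NASH samples and control 4 below all others. Vnn1 rose by 0.99 (SE 0.27, 1.99-fold, limma adjusted p = 0.0097). Ppargc1a ranged from 6.59 to 7.65 in controls (median 7.40) and from 7.03 to 8.87 in the NASH model (median 7.92), with the wider spread in the NASH group. It rose by 0.67 (SE 0.24, 1.59-fold, adjusted p = 0.047), and this call was lost on leaving out any of control 1, 3, 6, 7 or 9 or NASH model 1a, 2, 3, 4 or 5 (differences 0.53 to 0.69, adjusted p 0.056 to 0.0999). The Ppargc1a call was lost in 18 of the 30 alternative settings. Among these were the deposited values, median centring, and NASH model 1a and 1b taken as 1 sample. Creb3l3, the liver transcription factor of the fasting response that acts with PPARα, was not called (difference -0.19, SE 0.08, adjusted p = 0.11).

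Enzymes that work together or stand in for each other were compared within samples, since several called genes sit beside a partner that was not called. For 17 pairs, chosen with earlier results known, the log2 ratio of the genes was taken in each sample and its mean compared between the groups with an exact two-sided permutation test over 12870 splits, whose smallest p is 0.000155, adjusted over the 17 pairs. The ratio shifted in 9 of them. The share among pairs of other genes was not taken, and a ratio also shifts where either of its genes changes alone. Because the pairs were chosen with such differences in the same samples known, the p-values describe them and give no separate support. Several genes also recur across pairs, so the 9 shifts are not separate results. Cpt1a against Cpt2 shifted by 0.62 (SE 0.08), Bdh1 against Acat1 by 0.45 (SE 0.07) and Acadvl against Acadl by -0.69 (SE 0.07), each with an exact adjusted p of 8.8e-04. Within the acyl-CoA dehydrogenases Acadl thus gained on Acadvl, and it also gained on Acadm, whose ratio to it shifted by -0.24 (exact adjusted p = 0.0096).

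Hadha lost ground against Hadhb, with a shift of -0.21 (SE 0.06, exact adjusted p = 0.0026), but with the values as deposited the shift was -0.15 and its exact adjusted p 0.059. Between compartments, mitochondrial Eci1 fell behind peroxisomal Eci2 by -0.32 (SE 0.09, exact adjusted p = 0.0085). Within the peroxisome, Acox2 against Acox3 shifted by -0.44 (SE 0.12) and Ehhadh against Hsd17b4 by 0.76 (SE 0.25), both with an exact adjusted p of 0.0096. Without NASH model 2 and 7 the shift of Ehhadh/Hsd17b4 was 0.61 with an exact adjusted p of 0.055. Etfa against Etfdh shifted by 0.19 (SE 0.07, exact adjusted p = 0.045), a call lost on leaving out any of control 1, 3, 4, 5, 6, 9 or 10 or NASH model 1a, 1b, 5, 6 or 7 (Etfa/Etfdh shifts 0.15 to 0.20, exact adjusted p 0.053 to 0.087).

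In the remaining 8 pairs no shift was called. Decr1 against Decr2 (0.10, SE 0.08), Acadm against Acads (0.09, SE 0.09), Acaa1a against Acaa1b (-0.09, SE 0.10) and Cpt2 against Slc25a20 (-0.02, SE 0.09) had the narrower errors. Crat against Crot (0.24, SE 0.20), Cpt1a against Cpt1b (0.06, SE 0.29), Acaa2 against Acaa1a (-0.10, SE 0.14) and Hadha against Hadh (0.12, SE 0.11) had wider ones.

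**Figure D3:**
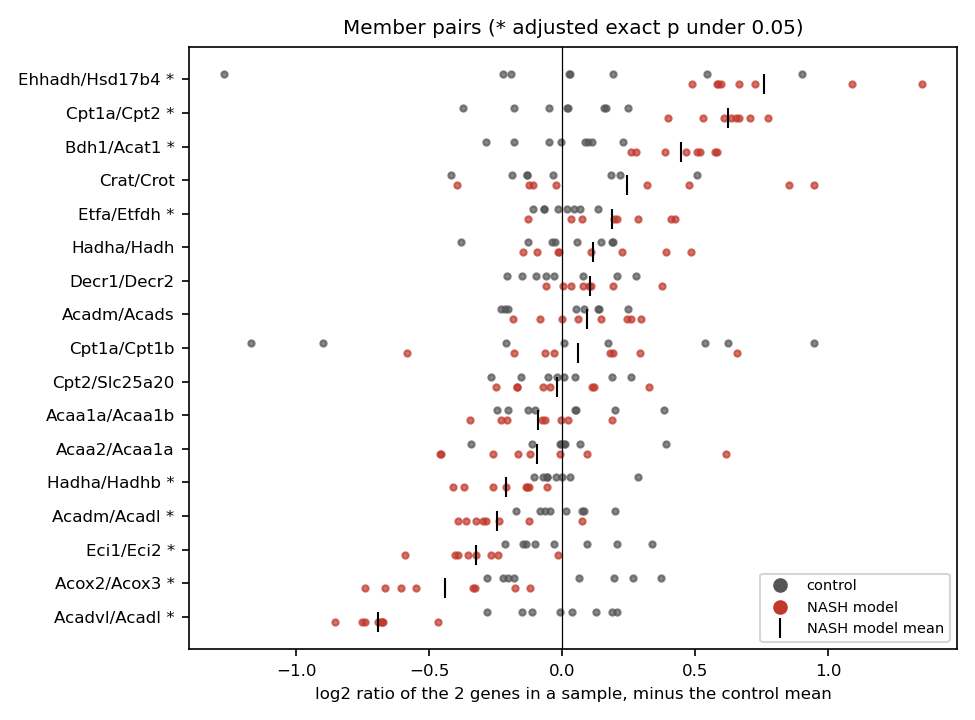
Log2 ratio of the genes of each of 17 pairs in each sample, minus the control mean (horizontal axis), with controls in grey, NASH model samples in red, a tick at the NASH mean and an asterisk at an exact adjusted p under 0.05. The ratio of Acadvl to Acadl is lower and that of Cpt1a to Cpt2 higher in the NASH model samples.

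Many of the 39 genes had their lowest or highest value in the same samples. Control 4 held the lowest value among the controls for 26 of the 39 genes (66.7%), beside 13.8% of all genes, and control 10 held the highest for 26 (66.7%), beside 12.6%. These samples are singled out for those values, so what follows on them only describes their order. Control 10 was above control 4 in 37 of the 39 genes, by a median of 0.64 on the log2 scale, whereas it was above control 4 in 49.6% of all genes. The exceptions were Acsl4, lowest in control 10, and Acox3, with a difference of -0.01. All 12 mitochondrial genes and all 7 of the carnitine shuttle followed this order, with medians of 0.62 and 1.05.

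Other groups of genes separated the same samples to differing extents. Control 10 was above control 4 in 19 of 20 other PPARα targets (median 1.18), in 19 of 20 further peroxisomal enzymes and transporters (median 0.28), in 13 of 15 further mitochondrial acyl-CoA enzymes (median 0.18) and in all 7 other ketone body genes (median 0.16). It was above control 4 in 11 of 18 genes of mitochondrial content (median 0.08) and in 7 of 14 hepatocyte markers (median 0.02). The same order held in 11 of 16 circadian clock genes (median 0.53). For macrophage markers the order was turned, with control 10 above control 4 in 1 of 13 (median -0.93) and summed signals of 792 and 1626. In the NASH group, NASH model 7 was lowest for 18 of the 39 genes (46.2%, beside 14.4% of all genes), and NASH model 2 was above it in 34 of 39 (87.2%, beside 47.0%). Hadha and Acaa2 went against this and were highest in NASH model 7. What sets these samples apart was not tested. Without control 4 and 10, left out after seeing the data, all 12 calls remained, and without NASH model 2 and 7 the calls of Acadm (0.31, adjusted p = 0.095), Ehhadh (0.61, adjusted p = 0.14) and Ppargc1a (0.65, adjusted p = 0.057) were lost.

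The controls were the more spread group for most of these genes. The SD over the 8 controls was larger than that over the 8 NASH samples in 28 of the 39 genes (71.8%), beside 60.7% of all genes, with median SDs of 0.23 and 0.17. Ehhadh (SD 0.76 and 0.36) and Vnn1 (0.80 and 0.36) were spread more in controls, while Pdk4 (0.69 and 1.14) and Ppargc1a (0.37 and 0.68) were spread more in the NASH model.

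**Figure D4:**
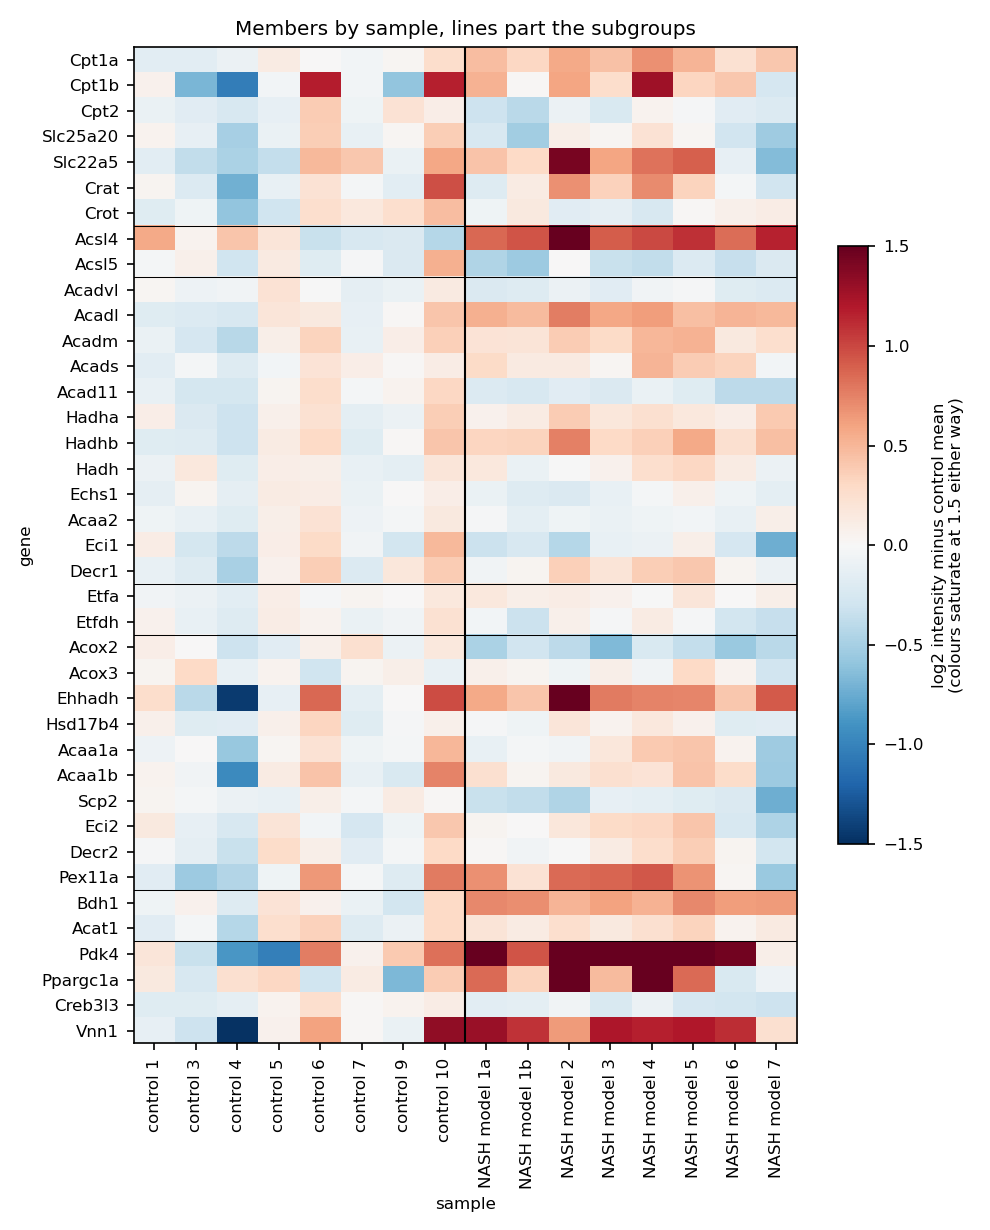
Log2 signal of each sample minus the control mean (colour, saturated at 1.5 either way) for the 39 genes (rows) in the 8 control and 8 NASH model samples (columns). Control 4 is low and control 10 high down most of the column, and the rows of Acsl4, Acadl and Bdh1 are red in all NASH samples.

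Genes around the pathway gave a mixed picture. Ppara itself fell by 0.53 (SE 0.11, limma adjusted p = 0.000757), from 8.94 ± 0.19 (SD, n = 8) to 8.41 ± 0.21, and its groups did not overlap. Of 13 measured receptors, partners and co-regulators 1 rose and 6 fell (median -0.19). The one that rose was Pparg, the adipogenic receptor, by 2.31 (SE 0.15), and Lpin1 (-0.80) and Foxo1 (-0.54) were among those that fell. Lpin1, a co-regulator of PPARα, lost its call on leaving out any of control 4, 5, 6, 7 or 10 or NASH model 3, 6 or 7 (-0.82 to -0.63, adjusted p 0.051 to 0.084).

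Of 20 other PPARα targets 9 rose and 2 fell (median 0.53), or 9 and 4 with median centring and 9 and 1 with spike-in centring. The fatty acid uptake receptor Cd36 rose by 3.28 (SE 0.13) from 5.77 ± 0.34 (SD, n = 8) to 9.04 ± 0.16, and the acyl-CoA thioesterases Acot3 and Acot2 by 2.37 (SE 0.68) and 2.12 (SE 0.32). Acot2 and Acot3 are close relatives in a gene cluster, so their signals may not be fully separate.

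Other peroxisomal genes fell more often than they rose. Of 20 further peroxisomal enzymes and transporters 12 fell and 2 rose (median -0.39). Nudt7, a coenzyme A hydrolase, fell by 2.07 (SE 0.21), Hacl1, the lyase of α-oxidation, fell by 1.28 (SE 0.21), and the very-long-chain transporter Abcd2 rose by 2.26 (SE 0.38). Of 12 peroxins, the proteins that build peroxisomes, 6 fell (median -0.37), with 11 falling under median centring and 2 under spike-in centring. Pex11g fell by 0.77 (SE 0.13), Pex26 by 0.62 (SE 0.18) and Pex6 by 0.53 (SE 0.17). With the values as deposited Pex26 and Pex6 lost their calls (-0.47 and -0.44, adjusted p 0.054 and 0.057), and Pex6 also lost its call without control 10, NASH model 2 or NASH model 7 (adjusted p 0.051 to 0.057).

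Of 15 further mitochondrial acyl-CoA enzymes, several of them in the breakdown of branched amino acids, 8 fell and 2 rose (median -0.30). The branched-chain dehydrogenases Acadsb and Acad8 fell by 0.77 (SE 0.09) and 0.64 (SE 0.11), and Echdc3, of the enoyl-CoA hydratase family, fell by 0.62 (SE 0.13). Genes of mitochondrial content were mostly not called: of 18, 1 rose and 2 fell (median -0.09). Vdac2, the outer membrane channel, rose by 0.41 (SE 0.08), Sdha, of respiratory complex II, fell by 0.54 (SE 0.13), and citrate synthase Cs fell by 0.25 (SE 0.09). The call of Cs was lost on leaving out any of control 3, 6 or 10 or NASH model 2, 3, 4 or 7 (-0.25 to -0.22, adjusted p 0.052 to 0.069).

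Of 7 other ketone body genes 2 rose and 3 fell. Oxct1, the enzyme of ketone use that adult hepatocytes largely lack, stood at 2.83 ± 0.38 (SD, n = 8) in controls, where 4 samples lay below the background level, and at 5.70 ± 0.23 in the NASH model. It was called higher, and with control values below the background level set to that level it was at least 6.38-fold higher. The monocarboxylate transporter Slc16a7 rose by 1.39 (SE 0.17), and Slc16a6, a transporter tied to ketone export, fell by 1.16 (SE 0.18). Macrophage and stellate markers rose in the same samples, as given above, and their part in the Oxct1, Pparg, Cd36 and Acsl4 values was not tested.

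Around pyruvate entry, 2 of 11 genes rose and 3 fell. The kinase Pdk1 fell by 1.09 (SE 0.15) while Pdk4 rose, the mitochondrial pyruvate carrier subunit Mpc1 rose by 0.91 (SE 0.11) and the phosphatase Pdp1 by 0.76 (SE 0.17). Of 10 genes that set malonyl-CoA, the inhibitor of Cpt1a, 2 rose and 4 fell. Both acetyl-CoA carboxylases fell, Acacb by 1.32 (SE 0.20) and Acaca by 1.14 (SE 0.12), and Prkab2, a subunit of AMP-activated kinase, was called higher with 7 of its 8 control values and 1 NASH value below the background level. With those values set to that level the Prkab2 difference was 1.42-fold. These lists were all drawn up with earlier results of the same data known.

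**Figure D5:**
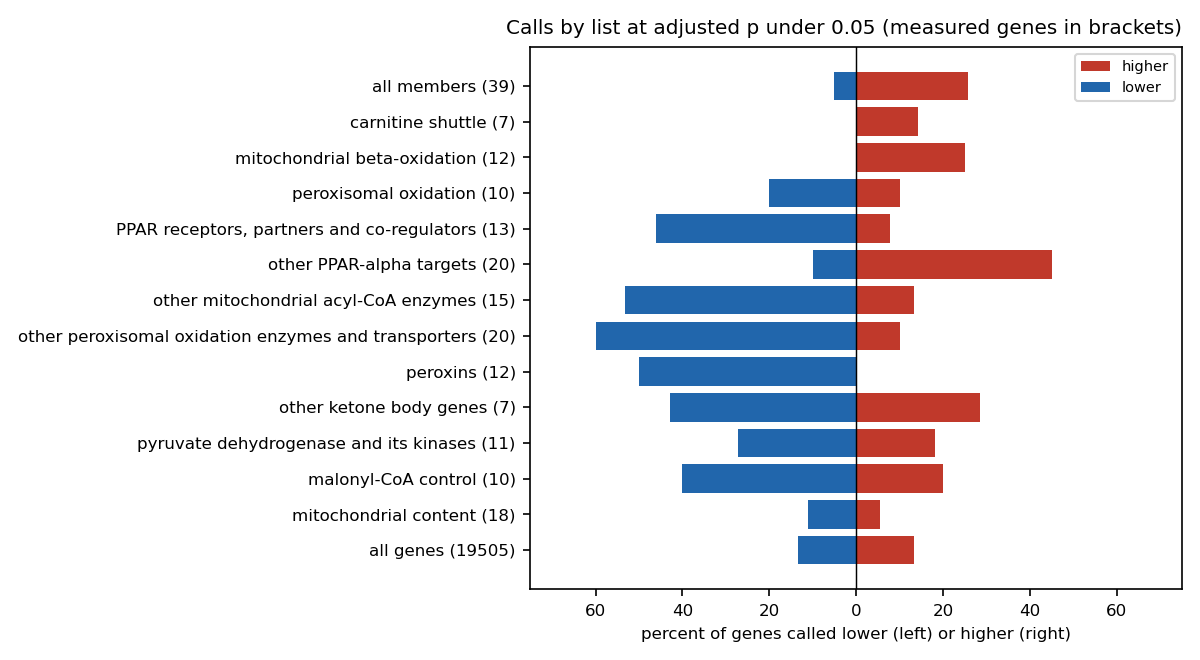
Percent of the measured genes of each list called lower (bars to the left) or higher (bars to the right) at an adjusted p under 0.05, with the number of measured genes in brackets and all 19505 genes at the bottom. The 39 genes lean to the right, while the other peroxisomal enzymes and the peroxins lean to the left.

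Fasting genes follow the time of day, and the time of sampling is not in the labels. Of 16 clock genes 5 rose and 5 fell. Arntl fell by 1.79 (SE 0.35), Nfil3 fell by 1.36 (SE 0.19) and Ciart rose by 1.48 (SE 0.43). A clock score, the first principal component of the within-group clock values, ranged from -1.997 to 4.17 over controls and from -0.56 to 0.76 over the NASH samples. With this score as a covariate 9 members rose and 2 fell, and Acadm was the one lost (adjusted p = 0.051). The score is centred within each group, so this fit could not remove a clock difference between the groups. A difference in sampling time between the groups and the groups themselves cannot be told apart here.

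The upstream sequences of the 39 genes were searched for the core of the PPARα element, since the genes are known as a PPARα program. RefSeq windows of 250 bases before the start site (GRCm38.p6) were at hand for 32 of them. The hexamer AGGTCA, on either strand, lay in 6 of the 32 (18.8%), beside 14.0% of all 32851 windows of that length. The 32 were counted by gene, with a match in any window of the gene, and all windows singly. The shares are therefore not of like units, and a gene with several windows has more room for a match. The full direct repeat, 2 copies of AGGTCA with 1 base between, was in none of the 32 and in 0.033% of all windows, and the cAMP response element TGACGTCA was in none of the 32 and in 1.55% of all windows. With shares this low, the lack of a match in 32 genes says little. A search for exact letters in 250 bases also cannot show variant or more distant elements. The 30 bases around each hexamer are shown to set the called genes beside the uncalled ones, with the hexamer in capitals (as TGACCT where it reads on the other strand).
Cpt1a (chr19:3323195-3323224, plus strand): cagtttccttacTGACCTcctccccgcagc
Acadm (chr3:153944864-153944893, minus strand): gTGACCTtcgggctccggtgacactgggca
Scp2 (chr4:108118639-108118668, minus strand): gtctaacacagtAGGTCAaaagaacccata
Acadvl (chr11:70015498-70015527, minus strand): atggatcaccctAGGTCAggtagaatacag
Echs1 (chr7:140116487-140116516, minus strand): accagcccgctcAGGTCAcgggtccacccc
Creb3l3 (chr10:81092776-81092805, minus strand): taagtaggggagAGGTCAcacagacccgac
Of these 6 genes Cpt1a and Acadm rose, Scp2 fell, and Acadvl, Echs1 and Creb3l3 were not called. A match is a description of the letters and no sign of binding.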

How the data were processed

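The authors deposited 1 table of log2 signal with 29129 probe sets for 16 Affymetrix arrays; per the labels' protocols, total RNA was taken with TRIzol and biotin-labelled. The summarisation and normalization behind the deposited log2 values are not given in the sources used here. Of the probe sets 19572 had 1 gene symbol, 9557 had none and 0 had several, and for 55 genes with more than 1 probe set the one with the highest mean was kept, leaving 19505 genes. Mut and Tf were looked up as Mmut and Trf.

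Column medians ran from 3.52 to 3.66, and arrays were quantile normalized, which moved no value by more than 0.16 log2. Arrays carry no read depth, and the number of samples limits the precision. Groups were compared with limma 3.58.1 (R 4.3.3; lmFit, eBayes, Benjamini-Hochberg over all genes), and the scripts were tested on simulated data. The background level is the 95th percentile over 1412 olfactory and vomeronasal receptor genes. Summed marker levels add linear signal over probe sets. Of 21 pairs, 4 held a gene not analysed here. The clock score takes up 59.4% of the within-group clock variance.

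The members, pairs and lists were chosen with earlier results of these data known. All members are named. The called members with the 8 largest differences, and those with a value far from its group, are given by lowest, median and highest sample. From each other list the 3 called genes with the largest differences are named, and Ppara in any case. The marker lists are given by their counts and sums. Alternatives were the deposited values, median, spike-in (18 probe sets) and cyclic loess scaling, the dimmest 40% of genes left out, the mean over probe sets, trend and robust eBayes, array weights, NASH model 1a and 1b as 1 sample, samples left out, the clock score as a covariate, the exact permutation test, and the replicate number as a block.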

Additional observations from a re-analysis of the deposited data

Results flagged for a closer look

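Of 78 sets of 8 values (39 genes in each group), 3 held a sample that stood far from the rest by Dixon's test, where chance gives about 1 in 20. Acsl4 in NASH model 2 was 9.24 log2, with the next sample at 8.65 and the lowest at 8.34. Ehhadh in the same sample was 10.79, with the next at 10.18 and the lowest at 9.66. Acaa1b in NASH model 7 was 8.16, with the next at 8.75 and the highest at 9.14. The cause was not tested.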

How the results depend on the processing

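Over 30 alternatives no called member changed direction. Members called higher numbered 7 to 11, beside 10 as reported. Members called lower numbered 2 as reported, 4 with the values as deposited, 7 with median centring, 4 without the dimmest 40% of genes, 5 with trend and robust eBayes, 1 with the replicate block and 6 in an exact permutation test adjusted over the list alone, and from 2 to 4 with 1 sample left out (4 without control 4). The cause was not tested, beyond the fewer genes adjusted over in the filtered and exact tests. The median difference of the members lay between -0.00 (median centring) and 0.17 (spike-in centring). Of single members, calls were lost 50 times and gained 29 times over all alternatives, and none reversed. Of pair differences 323 kept their side of the threshold, 17 lost it and 0 gained it.

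Same-numbered samples did not deviate together over all genes (correlations -0.03 to 0.06). Whether the shared numbers pair the samples is not settled by this, since a pairing that moved few genes could go unseen. With the replicate block 8 members were called higher and 1 lower, and Acadm, Ppargc1a and Scp2 (-0.27, adjusted p = 0.13) were not called. Precision is limited by 8 samples in each group.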
